A study of Cricetulus griseus with 20 samples.

Results

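Ubiquitin ligases attach ubiquitin to proteins, and 58 genes of 4 ligase families were followed through adipogenesis of Chinese hamster (Cricetulus griseus) preadipocytes under low oxygen. The members are the mRNAs whose symbol in the study's supplementary tables begins with Rnf, Trim, Fbxo, Fbxl, Fbxw or Klhl and a digit. They make up 58 of the 10318 mRNAs of the deposited table: 20 Rnf, 16 Trim, 16 F-box (Fbx) and 6 Kelch-like (Klhl) genes. Only 3858 of the 10318 mRNAs have a symbol in those tables, so genes of these families without one are not analysed here. Of the members, 37 are named in the list of mRNAs that the authors called differentially expressed between hypoxia and normoxia in these same libraries, and 21 only in the list of mRNAs that lie near a differentially expressed lncRNA. Counts over the 37 are therefore a description of genes already chosen on the oxygen comparison, and the 21 are given apart. Only shortened copies of these tables were used, so some of the 21 may also be on the authors' full list. The 21 are thus not a set free of that choice.

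The cells were primary preadipocytes from inguinal fat of 6-week-old hamsters, with the tissue of all animals pooled. Adipogenesis was induced with dexamethasone, insulin and IBMX and continued in insulin medium. Hypoxia cells spent 24 h in 1% O2, which ended at D0, D1, D3, D7 or D11 after induction, and normoxia cells stayed in 21% O2. Each of the 10 groups has 2 libraries, 20 in all, which the study calls biological replicates. Since the sources used here do not state separate cultures and the animals were pooled, the p-values cover no more than the spread of these libraries. Values are in TPM, a transcript abundance unit, and are corrected for transcript length and for depth.

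RING finger proteins (most Rnf and Trim products) bind a ubiquitin-loaded E2 enzyme and the substrate, and pass ubiquitin between them. TRIM proteins follow their RING with B-box and coiled-coil segments, and several of them act in antiviral defence. F-box proteins do not carry ubiquitin themselves: they hold the substrate for the SCF complex, in which Skp1 joins them to the scaffold Cul1 and to the RING protein Rbx1. Kelch-like proteins hold substrates for a second scaffold, Cul3. Ubiquitin ligases also set the level of hypoxia-inducible factors, whose turnover depends on oxygen, although the ligase known for that work (Vhl) belongs to none of these 4 families.

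The oxygen labels were checked with 13 named genes that hypoxia is known to induce, among them Bnip3, Ndufa4l2, Slc2a1 and Pgk1. Their summed level was above normoxia in both hypoxia libraries at D0, D1, D3 and D7 (5740 and 6320 TPM in hypoxia, against 3470 and 3840 TPM in normoxia, at D7). At D11 the sum was 5840 and 6460 TPM in the libraries labelled hypoxia and 8600 and 9580 TPM in those labelled normoxia. Bnip3, a mitophagy gene, had 320 and 313 TPM in the D11 libraries labelled hypoxia, against 616 and 762 TPM in those labelled normoxia. Relative to all mRNAs, 13, 13, 13 and 12 of the 13 rose at D0, D1, D3 and D7, beside 6.76%, 17.1%, 20.9% and 31.2% of all mRNAs. At D11, by contrast, 1 rose and 8 fell, beside 32.6% and 38.9% of all mRNAs. In TPM the targets divided at D11. Both libraries labelled hypoxia lay above both labelled normoxia for 6 of the 13 (Egln1, Ankrd37, Ddit4, Adm, Fam162a and P4ha2) and below them for 6 (Bnip3, Slc2a1, Gapdh, Pgk1, Ldha and P4ha1). Adm, a vasodilator peptide gene, had 8.35 and 8.07 TPM in the D11 libraries labelled hypoxia, against 2.23 and 1.86 TPM in those labelled normoxia. Gapdh and Pgk1, glycolytic genes, made up 53.6% to 64.3% of the D11 sum and so set most of it. The relative D11 split depended on scaling, with 4 rising and 4 falling without centring and 5 rising and 2 falling after quantile normalization. From these RNA values alone, an exchange of labels at D11 cannot be told apart from a different effect of hypoxia at D11. The study's protein blots and its other assays of these cells are not analysed here. Results at D11 hold for the labels as given, and results at D0 to D7 were also computed without the D11 libraries.

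**Figure D1:**
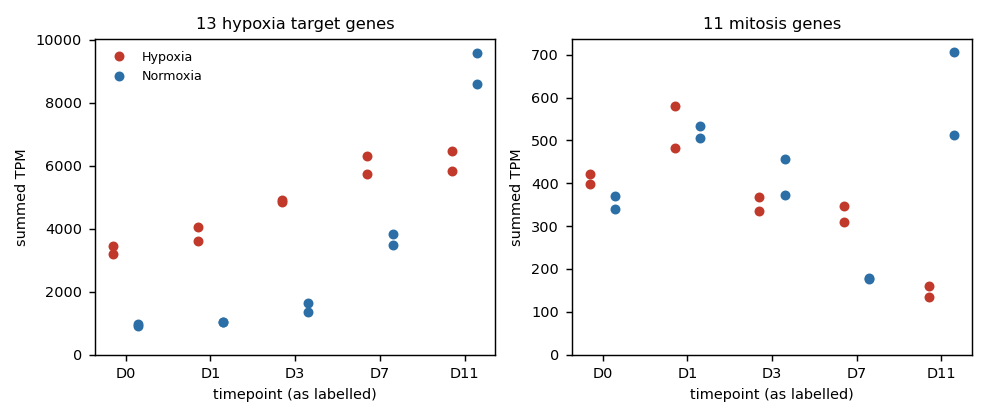
Summed TPM (vertical axes, from 0) of 13 hypoxia target genes on the left and 11 mitosis genes on the right, by timepoint as labelled; each point is 1 library, red for hypoxia and blue for normoxia, 2 libraries per group. Hypoxia lies above normoxia on the left from D0 to D7 and below it at D11; on the right it lies above normoxia at D7 and below it at D11.

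Of 7 named adipocyte markers, 1 rose and 4 fell in normoxia at D1 relative to D0, and 4 rose and 1 fell at D3. At D7 6 rose and 1 fell, and at D11 6 were higher and 0 lower. Of all mRNAs, 21.1% rose and 21.2% fell at D1, and 22.4% rose and 24.3% fell at D3. The shares were 35.1% and 33.4% at D7, and 41.0% and 34.7% at D11. The marker levels did not climb together. Cd36, a fatty acid transporter, had 5.57 and 8.0 TPM in normoxia at D11 and 60.5 and 77.8 TPM at D7. Of the markers of other cells that the cultures could hold, no macrophage or skeletal muscle gene had a name here, and the single endothelial marker, Pecam1, stayed between 0.565 and 9.03 TPM. The 2 epithelial markers, Epcam and Krt7, summed to 0.518 to 14.3 TPM, and the 2 preadipocyte markers, Pdgfra and Zfp521, to 5.93 to 27.9 TPM. Under hypoxia Pdgfra was higher at D0, D1 and D3 (relative log2 fold changes 0.67, 1.06 and 1.02), Pecam1 too (0.42, 0.65 and 0.62), and Krt7 most (1.14, 1.45 and 2.07). At D7 Pdgfra (-0.59), Zfp521 (-0.47), Pecam1 (-0.50) and Epcam (-0.64) were lower and Krt7 higher (0.33), although the D7 libraries of Krt7 overlapped in TPM. At D11 Pdgfra (0.50), Zfp521 (0.49) and Pecam1 (0.25) were higher, and Epcam (-0.52) and Krt7 (-0.25) lower only relative to all mRNAs. In TPM Krt7 was higher at D11, with 13.6 and 9.84 in the libraries labelled hypoxia, against 8.89 and 9.39 in those labelled normoxia. Epcam overlapped there (0.678 and 0.403 TPM, against 0.556 and 0.427 TPM). The part of these markers in the members' changes was not tested. A second property of the libraries bears on each fold change. The median log2(TPM + 1) of all mRNAs ranged over libraries between 2.79 and 3.66, and the listed mRNAs held 27.9% to 45.8% of a library's TPM. The median mRNA stood 0.19 lower in hypoxia at D7 and 0.51 higher at D11 on the log2 scale. For that reason each library's median was subtracted before the test, and a relative log2 fold change is the difference of log2(TPM + 1) after that step, given with its standard error. A gene was called when its adjusted p was under 0.05 in the limma fit of all 20 libraries, with Benjamini-Hochberg adjustment over all 10318 mRNAs, and all adjusted p-values below come from that fit.

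The members were expressed at modest levels. The median of their mean TPM over all libraries was 4.86, against 8.9 TPM for all mRNAs, and 14 members averaged over 10 TPM. Trim28, the corepressor of KRAB zinc-finger proteins, was the most abundant, at 24.1 to 88.8 TPM. It was followed by Rnf20, which ubiquitinates histone H2B (23.7 to 39.2 TPM), and Rnf181 (20.1 to 55.3 TPM). At the other end, 10 members averaged under 2 TPM: Fbxl8, Trim65, Trim36, Fbxo10, Fbxl15, Rnf150, Rnf157, Klhl25, Fbxo4 and Fbxl18. The group with the highest mean was hypoxia at D11 for 30 members (41.6% of all mRNAs) and normoxia at D0 for 14 (25.8% of all mRNAs). The group with the lowest mean was normoxia at D11 for 21 members (16.8% of all mRNAs) and hypoxia at D7 for 19 (37.6% of all mRNAs).

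Oxygen changed few of these genes early and most of them late, as it did for the transcriptome as a whole. At D0, 5 members rose and 2 fell under hypoxia, beside 12.0% of all mRNAs called (6.76% higher and 5.25% lower). At D1, 8 rose and 3 fell (33.7% of all mRNAs called, 17.1% higher and 16.6% lower), and at D3, 12 rose and 8 fell (38.2% of all mRNAs, 20.9% higher and 17.3% lower). At D7, 19 rose and 20 fell (54.3% of all mRNAs, 31.2% higher and 23.1% lower). In the libraries labelled hypoxia at D11, 35 were higher and 11 lower (71.5% of all mRNAs called, 32.6% higher and 38.9% lower). The called share of members thus lay close to the background at D0 (12.1%), below it at D1 and D3 (19.0% and 34.5%), and above it at D7 and D11 (67.2% and 79.3%). Among all mRNAs of the authors' list, 67.1% were called at D7 and 80.9% at D11. The early counts leaned on single libraries. Leaving out 1 of the 4 libraries of D0 left 3 or 4 members called there, leaving out hypoxia replicate 1 or normoxia replicate 2 of D1 left 6 or 7, and leaving out normoxia replicate 1 of D3 left 13. Calls of over 2-fold were fewer, at 0, 2, 1, 5 and 9 members from D0 to D11, beside 0.979%, 1.88%, 2.0%, 3.64% and 13.6% of all mRNAs.

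The median relative log2 fold change of the members was 0.02 at D0, 0.01 at D1, -0.04 at D3 and 0.00 at D7, against -0.02, 0.01, 0.02 and 0.07 for all mRNAs. At D11 it was 0.42, against -0.05 for all mRNAs. That value differed with the list in which the members were named. The 37 members on the authors' list had a median of 0.61 at D11, beside 0.39 for all 2368 mRNAs of that list with a row, and the 21 others had a median of 0.07. At D7 the 37 had a median of -0.31, beside -0.19 for their list, and the 21 others 0.28, beside 0.16 for the 1490 mRNAs named only through their position. Without centring the split at D7 was 9 members higher and 28 lower (9.97% and 39.2% of all mRNAs), and at D11 48 higher and 3 lower (63.3% and 13.2%). It was 4 higher and 6 lower at D1 (7.36% and 18.9%), and 7 higher and 11 lower at D3 (10.4% and 19.3%). Without the D11 libraries, an alternative added after the data were seen, 10, 10, 22 and 43 members were called at D0, D1, D3 and D7, beside 14.0%, 35.8%, 41.0% and 56.5% of all mRNAs.

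**Figure D2:**
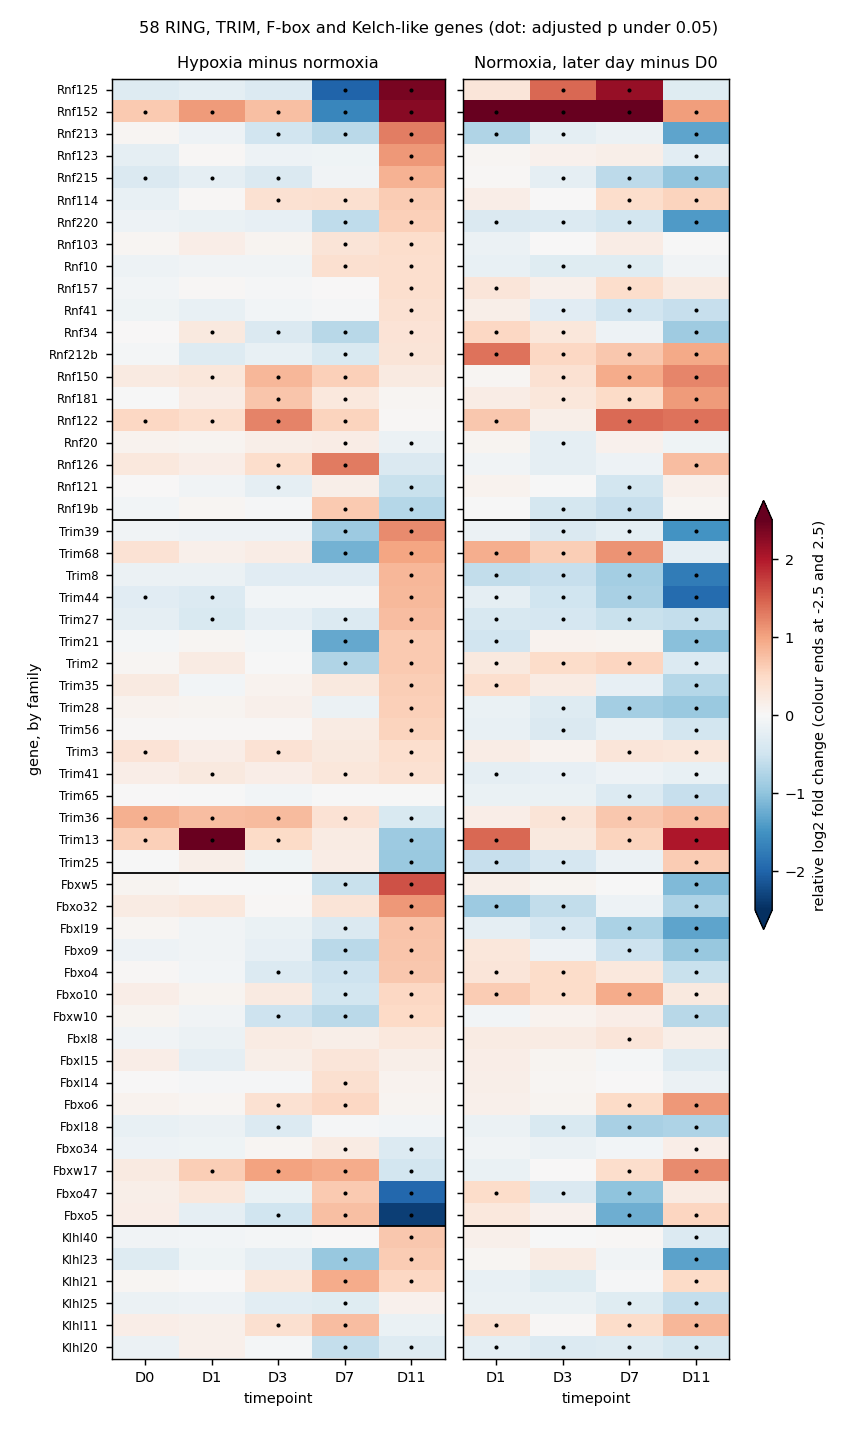
Relative log2 fold change of the 58 members (rows, in 4 blocks: Rnf, Trim, Fbx, Klhl, each ordered by the value at D11), for hypoxia minus normoxia at 5 timepoints on the left and for normoxia at D1, D3, D7 and D11 minus D0 on the right; red is higher, blue is lower, the colour scale ends at -2.5 and 2.5, and a dot marks an adjusted p under 0.05. The hypoxia columns are pale up to D3 apart from Rnf152, Rnf122, Rnf150, Rnf181, Trim36, Trim13 and Fbxw17, and colours turn between D7 and D11 in Rnf125, Rnf152, Trim39, Fbxo5 and Fbxo47.

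Over all mRNAs, the background for the 4 families below, 31.2% rose and 23.1% fell at D7. At D11 32.6% were higher and 38.9% lower. Among the 20 Rnf genes, hypoxia raised 2 and lowered 1 at D0, raised 4 and lowered 1 at D1, raised 6 and lowered 4 at D3, and raised 9 and lowered 6 at D7. At D11, 13 were higher and 3 lower. Without centring the split of the family turned round at D1 (1 higher and 4 lower), D3 (4 and 5) and D7 (3 and 9), whereas D11 kept its direction with 17 higher and 0 lower. The members of this family are Rnf10, Rnf19b, Rnf20, Rnf34, Rnf41, Rnf103, Rnf114, Rnf121, Rnf122, Rnf123, Rnf125, Rnf126, Rnf150, Rnf152, Rnf157, Rnf181, Rnf212b, Rnf213, Rnf215 and Rnf220.

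Rnf152 (ENSCGRG00015018826) encodes a lysosomal membrane ligase that restrains mTORC1 signalling. As a ratio of the highest to the lowest group mean (16.7 and 0.46 TPM), its level changed more than that of any other member. It had 1.09 and 1.39 TPM in hypoxia at D0, against 0.273 and 0.648 TPM in normoxia. At D1 it had 13.4 and 15.0 TPM in hypoxia, against 7.28 and 6.32 TPM in normoxia. At D3 it had 19.0 and 14.5 TPM in hypoxia, against 9.05 and 11.4 TPM in normoxia. Hypoxia libraries lay above normoxia libraries without overlap at these 3 timepoints, with relative log2 fold changes of 0.66 ± 0.13, 1.06 ± 0.13 and 0.75 ± 0.13 (SE; adjusted p = 0.0044, 2.4e-05 and 4.6e-04). At D7 the order was the opposite, with 3.77 and 3.03 TPM in hypoxia, against 15.3 and 15.5 TPM in normoxia (-1.64 ± 0.13, adjusted p = 2.1e-07). At D11 it turned again, with 14.4 and 15.0 TPM in the libraries labelled hypoxia, against 0.92 and 1.54 TPM in those labelled normoxia (2.27 ± 0.13, adjusted p = 9.8e-10). The D0 call was lost without hypoxia replicate 2 (adjusted p = 0.064) or without normoxia replicate 1 (adjusted p = 0.073) of that timepoint.

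Rnf125 (ENSCGRG00015022104), known in human cells to ubiquitinate the viral RNA sensor RIG-I, showed the widest swing between D7 and D11. At D0 it had 3.02 and 3.73 TPM in hypoxia, against 4.26 and 4.8 TPM in normoxia, and at D1 3.69 and 3.72 TPM in hypoxia, against 5.49 and 4.56 TPM in normoxia. Its levels in hypoxia and normoxia were not called different at D0, D1 or D3 (adjusted p = 0.15, 0.17 and 0.061), with 9.3 and 7.56 TPM in hypoxia at D3, against 11.4 and 11.8 TPM in normoxia. At D7 it had 2.99 and 2.78 TPM in hypoxia, against 17.5 and 17.6 TPM in normoxia. At D11 it had 24.2 and 24.2 TPM in the libraries labelled hypoxia, against 2.64 and 2.01 TPM in those labelled normoxia. The groups did not overlap at either timepoint, and the relative log2 fold change was -2.00 ± 0.13 at D7 (SE; adjusted p = 4.7e-08) and 2.37 ± 0.13 at D11 (adjusted p = 6.8e-10).

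Rnf213 (ENSCGRG00015002269), a very large ligase of lipid droplets and antimicrobial defence, was not called at D0 or D1, with 1.44 to 4.99 TPM in hypoxia and 1.9 to 4.96 TPM in normoxia. It had 1.85 and 1.66 TPM in hypoxia at D3, against 2.9 and 3.23 TPM in normoxia. At D7 it had 1.01 and 0.993 TPM in hypoxia, against 2.55 and 3.17 TPM in normoxia. At D11 it had 5.66 and 4.34 TPM in the libraries labelled hypoxia, against 0.611 and 0.751 TPM in those labelled normoxia. It was thus lower in both hypoxia libraries at D3 and D7 (-0.47 ± 0.084 and -0.68 ± 0.084) and higher at D11 (1.27 ± 0.084, SE; adjusted p = 3.5e-09). Rnf123, the catalytic subunit of the complex that degrades the cell cycle inhibitor p27, was called at D11 alone after centring. It had 5.83 and 4.74 TPM in the libraries labelled hypoxia, against 1.03 and 0.966 TPM in those labelled normoxia (1.09 ± 0.095, adjusted p = 6.9e-08). Without centring Rnf123 was also called lower at D7 (-0.36), with 1.12 and 1.08 TPM in hypoxia, against 1.58 and 1.83 TPM in normoxia.

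Rnf122 and Rnf126 kept 1 direction where they were called. Rnf122, a membrane-anchored RING protein, had 6.84 and 5.07 TPM in hypoxia at D3, against 2.0 and 2.23 TPM in normoxia. It was higher in both hypoxia libraries at D0, D1, D3 and D7, with relative log2 fold changes of 0.52 ± 0.11, 0.42 ± 0.11, 1.24 ± 0.11 and 0.55 ± 0.11 (SE), and near 0 at D11 (0.02), where its TPM was nevertheless higher in the libraries labelled hypoxia (8.87 and 7.99, against 4.89 and 5.71 in those labelled normoxia), as was the median mRNA. The D0 call did not survive leaving out hypoxia replicate 1 (adjusted p = 0.088) or normoxia replicate 1 (adjusted p = 0.073), nor did the D1 call without the first replicate of hypoxia (adjusted p = 0.074) or of normoxia (adjusted p = 0.078). Rnf126, which works with Bag6 in the clearance of misplaced membrane proteins, had 19.0 and 29.5 TPM in hypoxia at D7, against 10.5 and 11.5 TPM in normoxia (1.30 ± 0.16, adjusted p = 7.3e-06). It was also called at D3 (0.45), and at D11 its value was -0.35 without a call.

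The other Rnf calls were smaller. Rnf150 (0.83 ± 0.10) and Rnf181 (0.69 ± 0.10) rose at D3, and Rnf150 was called at D1 as well (0.29 ± 0.10, adjusted p = 0.036), a call that was lost when any 1 of the 4 libraries of D1 was left out (adjusted p between 0.051 and 0.22), without centring (0.28) and after quantile normalization (0.34). Rnf215 was lower in hypoxia at D0, D1 and D3 (-0.36 ± 0.081, -0.22 ± 0.081 and -0.35 ± 0.081), although at D0 this did not hold without hypoxia replicate 2 (adjusted p = 0.09) or normoxia replicate 2 (adjusted p = 0.054). Its D1 call (adjusted p = 0.046) was lost in most fits that left out 1 library, with an adjusted p as high as 0.26 without hypoxia replicate 1 of D1, and also without the D11 libraries (adjusted p = 0.055). Rnf215 stood higher at D11 (0.87), with 8.4 and 7.77 TPM in the libraries labelled hypoxia. Those labelled normoxia had 2.2 and 2.53 TPM. Rnf34, known in mouse to ubiquitinate the thermogenic coactivator PGC-1alpha, fell at D3 (-0.36 ± 0.074, adjusted p = 0.0014). At D11, Rnf19b (-0.71 ± 0.10) and Rnf121 (-0.55 ± 0.086) were lower, although the Rnf121 value was 0.01 and that of Rnf19b -0.15, neither called, without centring. The D11 libraries of Rnf121 overlapped in TPM (8.18 and 8.57 in those labelled hypoxia, against 7.94 and 8.75 in those labelled normoxia).

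Among the 16 Trim genes, hypoxia raised 3 and lowered 1 at D0, raised 3 and lowered 2 at D1, raised 3 and lowered 0 at D3, and raised 2 and lowered 5 at D7. At D11, 12 were higher and 3 lower. Without centring these splits were 2 higher and 2 lower at D1, 1 higher and 1 lower at D3, 0 higher and 9 lower at D7, and 13 higher and 1 lower at D11. The members are Trim2, Trim3, Trim8, Trim13, Trim21, Trim25, Trim27, Trim28, Trim35, Trim36, Trim39, Trim41, Trim44, Trim56, Trim65 and Trim68.

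Trim13 (ENSCGRG00015011164), a ligase anchored in the endoplasmic reticulum that takes part in protein quality control, gave the largest early change of any member. At D1 it had 46.8 and 60.3 TPM in hypoxia, against 10.8 and 8.27 TPM in normoxia. At D0 it had 5.98 and 5.15 TPM in hypoxia, against 3.27 and 3.56 TPM in normoxia, and at D3 4.51 and 5.04 TPM in hypoxia, against 3.18 and 3.64 TPM in normoxia. The D1 hypoxia libraries stood above all 18 other libraries, and the relative log2 fold change there was 2.47 ± 0.14 (SE; adjusted p = 2.6e-09). At D0 and D3 it was 0.60 ± 0.14 and 0.48 ± 0.14, of which the D0 call was lost without the first replicate of hypoxia (adjusted p = 0.076) or of normoxia (adjusted p = 0.075). At D7, with 4.21 and 3.23 TPM in hypoxia, against 3.77 and 3.94 TPM in normoxia, it was not called (0.21, adjusted p = 0.2). At D11 it had 8.8 and 10.3 TPM in the libraries labelled hypoxia, against 10.2 and 14.8 TPM in those labelled normoxia, which overlap in TPM (-0.90 ± 0.14 after centring, and -0.34 with an adjusted p of 0.061 without it).

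Trim39 (ENSCGRG00015021327), a regulator of apoptosis and of the anaphase-promoting complex, was called for oxygen at the last 2 timepoints only. From D0 to D3 it ranged between 5.37 and 9.89 TPM in hypoxia, and between 5.97 and 10.7 TPM in normoxia. At D7 it had 2.45 and 2.1 TPM in hypoxia, against 6.02 and 6.7 TPM in normoxia. At D11 it had 9.08 and 9.55 TPM in the libraries labelled hypoxia, against 1.92 and 2.23 TPM in those labelled normoxia. The relative log2 fold changes were -0.91 ± 0.073 at D7 (SE; adjusted p = 2.0e-07) and 1.19 ± 0.073 at D11 (adjusted p = 1.6e-09). Trim21 (ENSCGRG00015017712), the intracellular antibody receptor, ranged from D0 to D3 between 3.28 and 6.23 TPM in hypoxia, and between 3.57 and 6.76 TPM in normoxia, and was not called there. It had 1.27 and 0.834 TPM in hypoxia at D7, against 4.67 and 5.13 TPM in normoxia (-1.27 ± 0.10, adjusted p = 2.0e-07). At D11 it had 4.79 and 5.8 TPM in the libraries labelled hypoxia, against 1.68 and 1.73 TPM in those labelled normoxia, a relative log2 fold change of 0.65. Trim68, its close relative, fell at D7 too (0.472 and 0.372 TPM in hypoxia, against 2.73 and 3.07 TPM in normoxia; -1.19 ± 0.13).

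**Figure D3:**
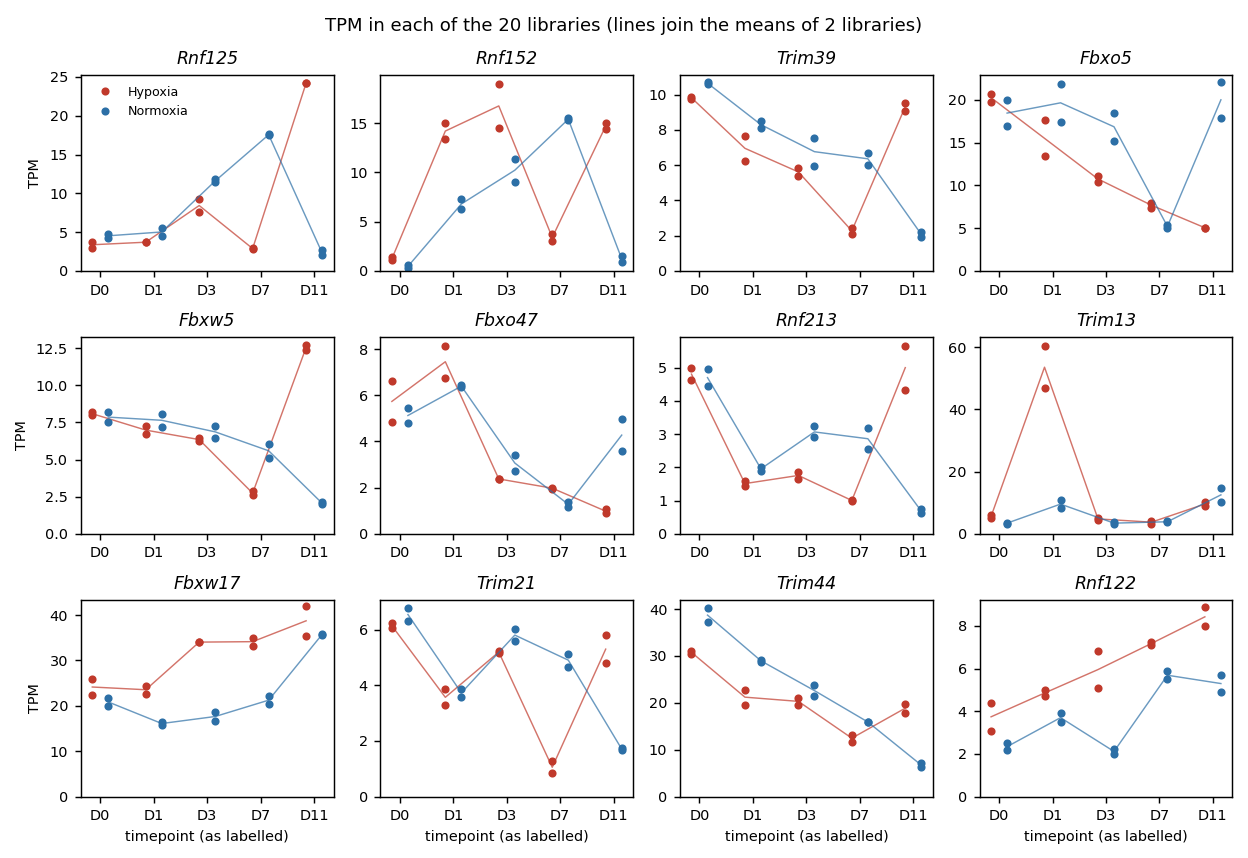
TPM (vertical axes, from 0) of 12 members in each of the 20 libraries by timepoint as labelled: the 10 members with the smallest p for an oxygen effect that differs between timepoints, then Trim44 and Rnf122; red points are hypoxia, blue points normoxia, and lines join the means of 2 libraries. Trim13 stands out at D1, and Rnf125, Rnf152, Trim39, Fbxw5, Rnf213 and Trim21 are lower in hypoxia at D7 and higher at D11.

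Genes known for antiviral signalling moved in the same window as Rnf125, Rnf213 and Trim21. The 10 interferon response genes read here are those of a longer list that have a symbol in the study's tables, which were chosen on the oxygen comparison, so their counts, like those of the other lists, are a description. Of the 10, 0 rose and 7 fell at D7 (median relative log2 fold change -0.57), and 7 were higher and 1 lower at D11 (median 0.54). Of all mRNAs on the authors' list 45.2% were lower at D7 and 58.2% higher at D11. Parp14 (-1.13 ± 0.10) and Ifih1, a viral RNA sensor (-0.96 ± 0.079), fell at D7, and the transcription factor Irf1 was 1.86 ± 0.13 (SE) higher at D11. Trim25, the ligase that activates RIG-I, did not follow them: it was not called at D7 and was lower in the D11 libraries labelled hypoxia (24.2 and 19.1 TPM, against 24.7 and 31.5 TPM in those labelled normoxia; -0.92 ± 0.12).

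Trim36 and Trim44 separated hypoxia and normoxia early and in opposite directions. Trim36 had 1.45 and 1.22 TPM in hypoxia at D0, against 0.224 and 0.339 TPM in normoxia. The deposited table holds genes above 1 TPM in both libraries of a group, which Trim36 reached only in hypoxia at D0 and D3. The rises of Trim36 there are therefore a description. It was higher in hypoxia at D0, D1, D3 and D7, with relative log2 fold changes of 0.90 ± 0.094, 0.77 ± 0.094, 0.79 ± 0.094 and 0.36 ± 0.094 (SE), all at no more than 1.45 TPM. At D11 it was lower only relative to all mRNAs (-0.38 ± 0.094, and 0.18 without a call uncentred), with 1.05 and 0.638 TPM in the libraries labelled hypoxia, against 0.6 and 0.639 TPM in those labelled normoxia. At D7 its libraries overlapped in TPM (0.671 and 0.602 in hypoxia, against 0.439 and 0.62 in normoxia), and its uncentred value of 0.1 was not called. Trim44, which lacks the RING of its family, had 30.5 and 31.0 TPM in hypoxia at D0, against 40.2 and 37.2 TPM in normoxia (-0.29 ± 0.079, adjusted p = 0.025), and 19.6 and 22.8 TPM in hypoxia at D1, against 28.8 and 29.1 TPM in normoxia (-0.33 ± 0.079). At D11 Trim44 was higher in the libraries labelled hypoxia, at 19.8 and 17.9 TPM. Those labelled normoxia had 6.23 and 7.17 TPM of Trim44 (uncentred log2 fold change 1.37). The D0 call was lost when any 1 of the 4 libraries of D0 was left out (adjusted p between 0.053 and 0.18). Trim27 was lower at D1 (-0.38 ± 0.11, adjusted p = 0.013), and lost that call without hypoxia replicate 1 (adjusted p = 0.079) or normoxia replicate 2 (adjusted p = 0.12). Trim3 passed at D0 (0.35 ± 0.11, adjusted p = 0.042) but not in most fits that left out 1 library. Trim65, at no more than 1.31 TPM, was called at no timepoint after centring. Without centring it was called lower at D7 (-0.27) and higher at D11 (0.55).

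Among the 16 F-box genes, hypoxia changed 0 at D0, raised 1 and lowered 0 at D1, raised 2 and lowered 4 at D3, and raised 6 and lowered 6 at D7. At D11, 7 were higher and 4 lower. Without centring 4 were higher and 7 lower at D7, and 13 higher and 2 lower at D11. The members are Fbxl8, Fbxl14, Fbxl15, Fbxl18, Fbxl19, Fbxo4, Fbxo5, Fbxo6, Fbxo9, Fbxo10, Fbxo32, Fbxo34, Fbxo47, Fbxw5, Fbxw10 and Fbxw17.

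Fbxo5 (ENSCGRG00015010053), known as Emi1, holds back the anaphase-promoting complex during the cell cycle. At D0 and D1 it had between 13.4 and 20.7 TPM in hypoxia, and between 16.9 and 21.9 TPM in normoxia, and was not called. At D3 it had 11.1 and 10.4 TPM in hypoxia, against 15.2 and 18.5 TPM in normoxia (-0.51 ± 0.11, adjusted p = 0.0027). At D7 it had 7.37 and 7.99 TPM in hypoxia, against 5.42 and 4.99 TPM in normoxia (0.74 ± 0.11, adjusted p = 6.2e-05). The D11 values of Fbxo5 were 5.05 and 5.05 TPM in the libraries labelled hypoxia, against 17.9 and 22.1 TPM in those labelled normoxia (-2.35 ± 0.11, adjusted p = 1.5e-10). Fbxo5 was lower in hypoxia at D3 and D11 and higher at D7, without overlap at any of them. Of 11 named genes of mitosis, 2 rose at D0, 1 rose at D1 and 2 fell at D3 (6.76%, 17.1% and 17.3% of all mRNAs). Relative to all mRNAs, all 11 rose at D7 (median relative log2 fold change 1.08), beside 31.2% of all mRNAs. Without centring 8 rose and 0 fell at D7 (median 0.82), beside 9.97% of all mRNAs higher. Espl1 overlapped in TPM at D7 (0.888 and 1.13 in hypoxia, against 0.976 and 0.919 in normoxia). All 11 were lower at D11 (median -2.32), beside 38.9% of all mRNAs. Their summed level was 310 and 347 TPM in hypoxia at D7, against 175 and 179 TPM in normoxia, and 134 and 161 TPM in the D11 libraries labelled hypoxia, against 513 and 708 TPM in those labelled normoxia. In bulk RNA a change in the share of dividing cells and a change in RNA per cell cannot be told apart.

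Fbxo47 (ENSCGRG00015016245), known for its part in meiosis in mouse, was also higher at D7 and lower at D11. From D0 to D3 it ranged between 2.36 and 8.15 TPM in hypoxia, and between 2.7 and 6.44 TPM in normoxia, without a call. It had 1.96 and 1.99 TPM in hypoxia at D7, against 1.16 and 1.39 TPM in normoxia (0.65 ± 0.11, adjusted p = 1.4e-04). Fbxo47 at D11 had 1.06 and 0.896 TPM in the libraries labelled hypoxia, against 3.57 and 4.98 TPM in those labelled normoxia (-1.96 ± 0.11, adjusted p = 5.7e-10). Fbxw5 (ENSCGRG00015007683), an adapter for Cul1 and Cul4 ligases, went the other way. From D0 to D3 it ranged between 6.24 and 8.2 TPM in hypoxia, and between 6.46 and 8.22 TPM in normoxia. It had 2.87 and 2.6 TPM in hypoxia at D7, against 5.13 and 6.05 TPM in normoxia, and 12.7 and 12.4 TPM in the D11 libraries labelled hypoxia, against 2.13 and 1.98 TPM in those labelled normoxia. Its relative log2 fold change was -0.56 ± 0.085 at D7 and 1.59 ± 0.085 at D11 (SE; adjusted p = 3.7e-10), while at D0, D1 and D3 it lay between -0.01 and 0.07 and was not called.

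Fbxw17 (ENSCGRG00015000247) rose under hypoxia at D1, D3 and D7. At D0 it had 25.9 and 22.4 TPM in hypoxia, against 21.8 and 19.9 TPM in normoxia, without a call, and at D1 22.7 and 24.4 TPM in hypoxia, against 16.4 and 15.8 TPM in normoxia. It had 34.1 and 34.0 TPM in hypoxia at D3, against 16.7 and 18.6 TPM in normoxia, and 33.3 and 35.0 TPM in hypoxia at D7, against 20.3 and 22.2 TPM in normoxia. The relative log2 fold changes were 0.62 ± 0.084, 1.00 ± 0.084 and 0.92 ± 0.084 at D1, D3 and D7 (SE; adjusted p = 5.3e-05, 3.4e-07 and 5.2e-07). At D11 the libraries overlapped in TPM, with 42.0 and 35.5 TPM in those labelled hypoxia, against 35.9 and 35.6 TPM in those labelled normoxia, and the relative value was -0.45. By the positions in the study's tables Fbxw17 overlaps the lncRNA G8341 on the same strand, so reads of the 2 genes may be hard to separate and its values are uncertain. G8341 had 5.14 and 3.67 TPM in hypoxia at D3, against 1.31 and 1.94 TPM in normoxia, and 2.74 and 1.32 TPM in hypoxia at D7, against 2.99 and 2.53 TPM in normoxia.

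Fbxo32 (atrogin-1, the F-box protein of muscle wasting) had 11.4 and 10.7 TPM in the D11 libraries labelled hypoxia, against 2.62 and 3.1 TPM in those labelled normoxia (1.08 ± 0.18, adjusted p = 5.9e-05), and was called at no earlier timepoint. Fbxw10 (-0.51 ± 0.14) and Fbxo4 (-0.35 ± 0.12, adjusted p = 0.026) fell at D3. The Fbxw10 call was lost without replicate 1 of hypoxia (adjusted p = 0.11) or of normoxia (adjusted p = 0.082), and the Fbxo4 call without hypoxia replicate 2 (adjusted p = 0.36) or normoxia replicate 1 (adjusted p = 0.17). Fbxl8 and Fbxl15, neither of which exceeded 1.55 TPM, were not called at any timepoint after centring. Without centring both were called higher at D11 (0.82 and 0.7).

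Of the 6 Kelch-like genes (Klhl11, Klhl20, Klhl21, Klhl23, Klhl25 and Klhl40), none was called at D0 or D1, Klhl11 alone rose at D3, 2 rose and 3 fell at D7, and 3 were higher and 1 lower at D11. Without centring 1 was lower at D3 and 0 higher, and 5 were higher and 0 lower at D11. At D7, Klhl21, an adapter that brings Cul3 to mitotic spindles, had 2.73 and 5.17 TPM in hypoxia, against 1.9 and 2.16 TPM in normoxia (0.93 ± 0.19, adjusted p = 9.0e-04), and its 2 hypoxia libraries lay further apart than the lower of them lay from normoxia. Klhl11 had 16.5 and 15.9 TPM in hypoxia at D7, against 10.2 and 11.8 TPM in normoxia (0.78 ± 0.085, adjusted p = 2.7e-06). Klhl23 had 0.973 and 0.647 TPM in hypoxia at D7, against 3.0 and 3.32 TPM in normoxia (-0.95 ± 0.11, adjusted p = 4.3e-06). Klhl23 at D11 had 2.72 and 3.19 TPM in the libraries labelled hypoxia, against 0.614 and 0.832 TPM in those labelled normoxia.

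The opposite signs at D7 and D11 were then counted over all members; the 2 comparisons share no library. Of the 58, 25 were called at both timepoints in opposite directions, beside 30.6% of all mRNAs. Another 6 were called in the same direction (Klhl20, Klhl21, Rnf10, Rnf103, Rnf114 and Trim41), beside 9.6% of all mRNAs. Of these 6, only Klhl21 kept both calls without centring (0.67 at D7 and 1.08 at D11). Uncentred, Rnf10, Rnf103, Rnf114 and Trim41 were not called at D7 (0.14, 0.06, 0.14 and 0.02). Klhl20 was then lower at D7 (-0.85) and not called at D11 (0.25). Of the 25, 18 were lower at D7 and higher at D11 (12.9% of all mRNAs), and 7 were higher at D7 and lower at D11 (17.6% of all mRNAs). The 7 were Fbxo5, Fbxo34, Fbxo47, Fbxw17, Rnf19b, Rnf20 and Trim36, of which only Fbxo5 and Fbxo47 were so called without centring (3.11% of all mRNAs). Fbxo34 and Rnf20 had uncentred values of -0.05 and -0.07 at D7 and of 0.22 and 0.41 at D11, the opposite signs. Without centring 27 members were lower at D7 and higher at D11, beside 31.1% of all mRNAs. The naming again divided the members: of the 21 named only through position, 1 was lower at D7 and higher at D11. Of all mRNAs on the authors' list, 45.2% were lower at D7 and 58.2% higher at D11, against 23.1% and 32.6% of all mRNAs. The count of 18 is therefore a description of members mostly chosen on the oxygen comparison. The difference between the effects at D11 and D7 was itself called for 45 members, 30 of them with a more positive effect at D11 and 15 with a more negative one, beside 71.5% of all mRNAs (30.5% more positive and 41.0% more negative).

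**Figure D4:**
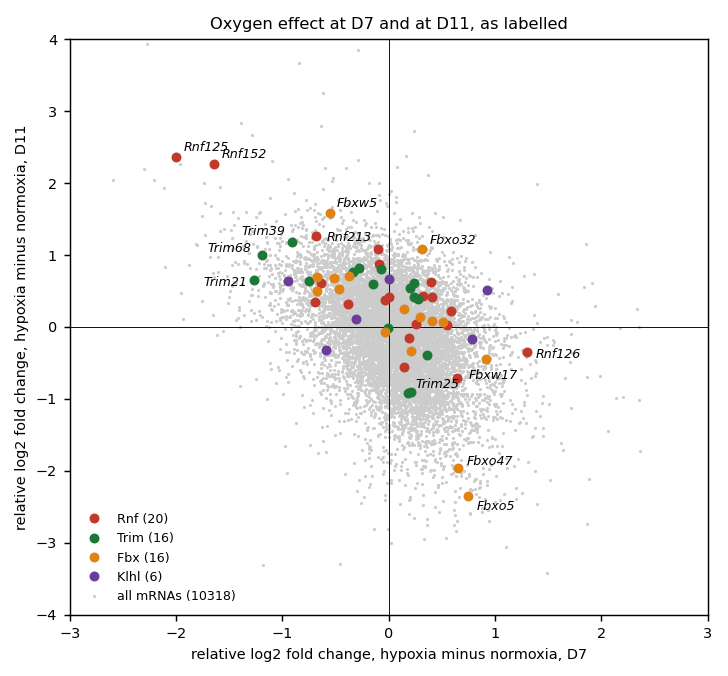
Relative log2 fold change of hypoxia minus normoxia at D7 (horizontal axis) and at D11 as labelled (vertical axis); coloured points are the 58 members by family, grey points all 10318 mRNAs, of which 2 lie outside the axes. Rnf125 and Rnf152 lie at the upper left (lower at D7, higher at D11) and Fbxo5 and Fbxo47 at the lower right (higher at D7, lower at D11).

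An oxygen effect that varied over the 5 timepoints was called for 48 members (80.7% of all mRNAs). The smallest p-values belonged to Rnf125, Rnf152, Trim39, Fbxo5 and Fbxw5, then to Fbxo47, Rnf213, Trim13, Fbxw17 and Trim21. Calls at each of the first 3 timepoints were rarer. Rnf122, Rnf152, Trim13 and Trim36 were called higher at each of D0, D1 and D3, beside 4.71% of all mRNAs, and Rnf215 lower at each of them, beside 3.51%. Of these, Trim36 passed the deposited minimum of 1 TPM only through its hypoxia libraries at D0 and D3. Rnf152 and Trim36 were called at all 5 timepoints (4.09% of all mRNAs), 35 members at no timepoint before D7 (48.5% of all mRNAs), and Fbxl8, Fbxl15 and Trim65 at none (8.43% of all mRNAs). The TPM of the 2 hypoxia and the 2 normoxia libraries did not overlap for 33 members at D0 (58.1% of all mRNAs), 37 members at D1 (62.6%), 46 members at D3 (66.1%), 43 members at D7 (75.3%) and 53 members at D11 (84.6%).

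Differentiation in normoxia altered more of the genes than oxygen did at the early timepoints. Relative to D0, 13 members rose and 10 fell at D1 (42.3% of all mRNAs called, 21.1% higher and 21.2% lower), 11 rose and 20 fell at D3 (46.7%, 22.4% higher and 24.3% lower), 18 rose and 19 fell at D7 (68.6%, 35.1% higher and 33.4% lower), and 18 were higher and 28 lower at D11 (75.6%, 41.0% higher and 34.7% lower). At D3, leaving out normoxia replicate 1 of D0 left 20 members called, and leaving out replicate 1 or 2 of D3 left 19 or 18. Without centring falls prevailed in all 4, as they did for all mRNAs, with 7 members higher and 20 lower at D1 (8.46% and 34.8% of all mRNAs), 3 and 26 at D3 (9.24% and 46.6%), 6 and 37 at D7 (14.5% and 57.8%), and 10 and 39 at D11 (20.4% and 54.8%). These 4 comparisons share the D0 libraries. A change over the normoxic groups was called for 52 members, beside 92.9% of all mRNAs, and the smallest p-values were those of Rnf152, Trim44, Trim39, Rnf125, Rnf34 and Fbxw17.

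Rnf152 and Rnf125 climbed up to D7. In normoxia Rnf152 stood higher than at D0 by relative log2 fold changes of 2.61 ± 0.13 at D1, 3.19 ± 0.13 at D3 and 3.92 ± 0.13 at D7 (SE; adjusted p = 2.3e-12 at D7), and by 1.05 at D11 as labelled. Rnf125 stood 1.43 ± 0.13 higher at D3 and 2.17 ± 0.13 at D7, and at D11 its value was -0.3 without a call. Rnf122 was higher by 1.42 ± 0.11 at D7 and 1.35 ± 0.11 at D11. Trim68 rose at D1, D3 and D7 (0.90 ± 0.13, 0.61 ± 0.13 and 1.13 ± 0.13), and Rnf212b rose at D1 (1.35 ± 0.13) and D3 (0.52 ± 0.13). Trim13 rose at D1 (1.43 ± 0.14) and was higher at D11 (2.03 ± 0.14), as were Rnf150 (1.22 ± 0.10) and Fbxw17 (1.19 ± 0.084).

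Trim44 fell step by step in normoxia, with 40.2 and 37.2 TPM at D0, 28.8 and 29.1 at D1, 21.5 and 23.7 at D3, 15.8 and 16.0 at D7, and 6.23 and 7.17 at D11 as labelled. All D11 values in this paragraph rest on the labels, and the D11 libraries labelled hypoxia had 19.8 and 17.9 TPM of Trim44. No normoxia library of a later timepoint overlapped one of an earlier timepoint, and the relative log2 fold change at D11 was -1.93 ± 0.079 (SE; adjusted p = 1.0e-11). Trim8, a regulator of cytokine signalling, fell at D1, D3 and D7 (-0.62 ± 0.15, -0.58 ± 0.15 and -0.84 ± 0.15) and was lowest at D11 (-1.75 ± 0.15). Trim39 had 10.7 and 10.6 TPM at D0 in normoxia, 8.1 and 8.49 at D1, 5.97 and 7.56 at D3, 6.02 and 6.7 at D7, and 1.92 and 2.23 at D11. It was lower at D11 (-1.49 ± 0.073), as was Rnf220 (-1.42 ± 0.096). Rnf34 had 14.5 and 14.7 TPM at D0, 19.1 and 18.1 at D1, 14.3 and 16.0 at D3, 9.69 and 9.74 at D7, and 4.74 and 5.72 at D11 in normoxia, so it was highest at D1 and lowest at D11. Fbxo5 (-1.23 ± 0.11), Fbxo47 (-1.01 ± 0.11) and Trim28 (-0.86 ± 0.088) fell at D7. Among the early falls were those of Fbxo32 (-0.90 ± 0.18 at D1 and -0.62 ± 0.18 at D3), Rnf213 (-0.76 ± 0.084 at D1), Trim25 (-0.57 ± 0.12 at D1), Trim44 (-0.51 ± 0.079 at D3) and Rnf19b (-0.44 ± 0.10 at D3).

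Other genes of the ubiquitin system were read from lists, of which the named members are given as counts. The background for every list below is all mRNAs. Of these, 31.2% rose and 23.1% fell at D7, and 32.6% were higher and 38.9% lower at D11. Without centring the shares were 9.97% higher and 39.2% lower at D7, and 63.3% higher and 13.2% lower at D11. Of 9 named genes of the Cullin machinery (which includes Rbx1 and COP9 signalosome subunits), 3 rose and 1 fell at D7, and 1 was higher and 5 lower at D11. Without centring 1 was higher and 2 lower at D7, and 5 higher and 1 lower at D11. Rbx1, the RING protein shared by the Cullin complexes, had 154 and 157 TPM in the D11 libraries labelled hypoxia, against 337 and 381 TPM in those labelled normoxia (-1.76 ± 0.085, adjusted p = 1.5e-10), whereas Dcun1d2, which helps to activate Cullins, was higher (1.10 ± 0.17). Of 8 named E1 and E2 enzymes, 5 rose and 2 fell at D7, and 1 was higher and 4 lower at D11 (3 higher and 3 lower at D7, and 4 higher and 3 lower at D11, without centring). Ube2c, an E2 of the anaphase-promoting complex that is also in the mitosis list, had the same signs as Fbxo5, with 1.87 ± 0.17 at D7 and -2.74 ± 0.17 at D11 (SE).

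Of 18 named deubiquitinases, which remove ubiquitin, 5 rose and 6 fell at D7, and 8 were higher and 5 lower at D11. Without centring 2 were higher and 8 lower at D7, and 13 higher and 2 lower at D11. Usp37 was among those that turned, with 0.81 ± 0.087 at D7 and -1.27 ± 0.087 at D11. Of 9 named genes with a proteasome symbol, 1 rose and 3 fell at D7, and 2 were higher and 6 lower at D11, which became 0 higher and 4 lower at D7, and 4 higher and 2 lower at D11, without centring. One of the 9, Psmc3ip, is not a proteasome subunit but a recombination factor (-2.37 ± 0.090 at D11). Psmb8 and Psmb9 are also in the interferon response list, as is Usp18 of the deubiquitinases, so these lists are not independent. Of 4 genes of the F-box and Kelch families under other names (Skp2, Kbtbd2, Kbtbd3 and Enc1), 1 rose and 3 fell at D7, and 1 was higher and 2 lower at D11 (2 higher and 1 lower without centring). Skp2, an F-box protein that degrades p27, was lower at D7 (-0.59 ± 0.12) and at D11 (-1.74 ± 0.12). Kbtbd2 rose at D7 (0.81 ± 0.074) and was lower at D11 only relative to all mRNAs (-0.59 ± 0.074, and -0.03 without a call uncentred), with libraries that overlapped in TPM (39.7 and 40.5 in those labelled hypoxia, against 35.4 and 47.0 in those labelled normoxia).

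Of the members, 34 have at least 1 neighbouring lncRNA in the study's tables, in 39 pairs. Those tables list lncRNAs that the authors called different between hypoxia and normoxia, so the values are a description. Apart from G8341, 2 neighbours chosen after their values were seen are given here. G11079, listed beside Rnf152, had 0 and 0.115 TPM in hypoxia at D7, against 0.511 and 0.741 TPM in normoxia, and 1.28 and 1.04 TPM in the D11 libraries labelled hypoxia, against 0 and 0.0528 TPM in those labelled normoxia. Its order matched that of Rnf152 at both timepoints. Most of the listed neighbours were likewise lower in hypoxia at D7 and higher at D11 as labelled, whatever their member did. The match here and the reverse order below are therefore not particular to these pairs. G13145, listed beside Fbxo47, had 1.71 and 0.904 TPM in hypoxia at D7, against 3.62 and 4.08 TPM in normoxia, and 3.66 and 5.42 TPM in the D11 libraries labelled hypoxia, against 1.19 and 1.46 TPM in those labelled normoxia, the reverse of the order of Fbxo47.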

How the data were processed

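RNA of 20 libraries was sequenced after rRNA depletion with strand-specific preparation. The authors deposited TPM values per gene, estimated on the CriGri-PICR assembly, and the submitters' processing notes name CASAVA 1.8.2, STAR 2.6.0c and kallisto 0.44.0. The deposited mRNA table holds genes above 1 TPM in both libraries of at least 1 group (10318 of 10318). TPM keeps no read depth, so counting error is unknown. The study tested read counts. Because the files hold TPM, limma 3.58.1 (R 4.3.3) was fitted here to log2(TPM + 1) after subtraction of each library's median over all mRNAs, with 10 group means, a mean-variance trend and 10 residual degrees of freedom, and p-values were adjusted by Benjamini-Hochberg over all 10318 mRNAs (threshold 0.05). The fit was also run on simulated data, and the outcome is not reported here. Symbols came from the study's supplementary tables, of which shortened copies were used, and none of their values was used.

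The members, lists and tests were chosen with earlier results of these data known. Values per library are given for the 10 members with the smallest p for an oxygen effect that varies over timepoints and the 6 with the smallest p over the normoxic groups. In each oxygen comparison every called member with a change over 2-fold and up to 6 called members in each direction are named, and in each normoxic comparison up to 4 in each direction; lists name up to 3 genes each. Genes named outside this rule (such as Trim28, Rnf20, Trim65 and the lncRNAs) were chosen after their values were seen. Alternatives were a pseudocount of 0.1, a minimum of 5 TPM, no centring, quantile normalization, the compared groups alone, the replicate number as a block, each library left out, the members named only through position, and, added after the data were seen, a fit without the D11 libraries.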

Additional observations from a re-analysis of the deposited data

Results flagged for a closer look

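The effect of hypoxia differed between D11 and D7, by the test of the difference itself in the limma fit, for 45 of the 58 members (77.6%), beside 71.5% of all mRNAs and 81.5% of those on the authors' list. Among the members described per library, the effect at D11 minus that at D7, on the relative log2 scale, was 4.37 for Rnf125, 3.91 for Rnf152, 2.14 for Fbxw5, 2.1 for Trim39, 1.95 for Rnf213 and 1.92 for Trim21. It was -1.11 for Trim13, -1.37 for Fbxw17, -2.61 for Fbxo47 and -3.09 for Fbxo5. All of these rest on the D11 labels, where hypoxia target genes moved both ways, and an exchange of labels at D11 cannot be told apart from a different effect of hypoxia by these RNA values alone.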

How the results depend on the processing

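Of the 53 named calls of an oxygen effect, 46 held without centring, 52 with a pseudocount of 0.1 and 52 after quantile normalization; Rnf121 at D11 reversed without centring, to 0.01. Restricting the fit to the compared groups left 4 members called at D0. The members named only through position gave 0, 2, 7, 14 and 15 calls at D0, D1, D3, D7 and D11, and a 2-fold minimum gave 0, 2, 1, 5 and 9. A minimum of 5 TPM in both libraries of a group kept 37 members, a set other than the 37 on the authors' list. Of these, 23 were called at D7, 34 over the normoxic time course, 18 for normoxia at D3 and 30 for normoxia at D11. In the main fit 39, 52, 31 and 46 of the 58 members were called. The median of the members at D7 was 0.127 above 5 TPM, -0.063 without centring (relative to all mRNAs), -0.069 with a pseudocount of 0.1, 0.056 after quantile normalization and 0.277 for members named only through position. At D11 it was 0.653 with a pseudocount of 0.1, 0.302 after quantile normalization and 0.071 for members named only through position, for which it was 0.04 at D3.

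Leaving out 1 library at a time gave 3 to 8 calls at D0, 6 to 12 at D1, 13 to 21 at D3, 30 to 40 at D7, 44 to 47 at D11 and 40 to 46 for the difference between D11 and D7. It gave 50 to 53 calls over the normoxic time course, 44 to 50 for an oxygen effect that varies, and 18 to 24, 18 to 31, 34 to 38 and 42 to 47 for normoxia at D1, D3, D7 and D11 relative to D0. The medians ranged between -0.043 and 0.066 at D0, -0.019 and 0.043 at D1, -0.053 and -0.003 at D3, -0.042 and 0.076 at D7, and 0.377 and 0.494 at D11. With the replicate number as a block, 7, 12, 19, 39 and 45 members were called from D0 to D11, and of the named calls that of Rnf215 at D1 was lost (adjusted p = 0.055). Over 45 pairs of groups the correlation of the deviations of same-numbered libraries lay between -0.435 and 0.372, with a median of 0.0128. Between hypoxia and normoxia of the same timepoint it was 0.153, -0.125, 0.0816, 0.0128 and 0.282 from D0 to D11. With 2 libraries per group these values cannot decide whether same-numbered libraries share a culture. TPM values carry no depth, which limits what can be said of members under 2 TPM.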
